A study of Mus musculus with 6 samples.

Results

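The 36 genes described here are interferon-induced genes and genes of antigen presentation, followed in the forebrain of mice with a single working copy of *Slc13a4*, a sodium-coupled sulfate transporter. They were chosen by gene symbol, after *Ifi27* had been seen to be lower in the *Slc13a4*+/- forebrain, to ask whether that difference extended to other interferon targets and whether the genes varied together from mouse to mouse. All 36 were found among the 35523 genes of the series, and all 36 had enough counts to be tested, with 17096 genes tested in all. The genotype values below therefore describe genes picked with this same contrast in view, and they are not an independent test of it.

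RNA-Seq was carried out on the whole forebrain of C57BL/6 mice at postnatal day 20. There were 3 *Slc13a4*+/- mice (named Nas2Del_Het_1024, Nas2Del_Het_1025 and Nas2Del_Het_1027 in the labels), heterozygous for an allele that the submitters call Nas2Del, and 3 wild-type mice, described by the study as littermates (named Nas2Del_WT_1016, Nas2Del_WT_1018 and Nas2Del_WT_1026). Values of a genotype are given in this order below. None of the mice received a treatment that the labels mention. The deleted allele is carried by every cell of the animal, so neither a promoter nor a Cre line limits it to a cell type, and the sources used here give neither the sex nor the litter of each mouse. As the forebrain was taken whole, a value mixes the RNA of neurons, glial cells, vessels and choroid plexus, and fewer cells of a type cannot be told apart from less RNA in each cell.

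Interferons are secreted proteins that warn cells of virus infection. Type I interferons bind a receptor whose kinases JAK1 and TYK2 activate transcription factors, among them STAT2, which joins IRF9 in the complex ISGF3, and this complex binds interferon-stimulated response elements in the promoters of its target genes. The targets include sensors of viral RNA, proteins that block virus entry, translation or release, and the class I antigen presentation machinery that shows peptides of the cell to T cells. In an uninfected brain these genes run at a low tonic level.

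Between 60340337 and 80410582 estimated counts were assigned per mouse. *Slc13a4* itself had 5.42 to 6.57 CPM (counts per 1000000, after TMM normalization) in the *Slc13a4*+/- mice and 8.23 to 10.4 CPM in the wild-type mice. Forebrain marker genes summed to 196 to 231 TPM (transcripts per 1000000, a level per transcript length) in the 6 mice, and hindbrain markers to 1.051 to 2.27 TPM. Wild-type mouse Nas2Del_WT_1026 stood apart from the other wild-type mice: the chi-square per gene, which grows as the counts of 2 mice diverge, was 39.4 against mouse Nas2Del_WT_1016 and 33.8 against mouse Nas2Del_WT_1018, and it was 7.004 between those mice. Mouse Nas2Del_WT_1016 was also the only mouse with a high level of the Y-linked gene *Ddx3y*, at 105 CPM against at most 0.033 CPM in the other 5. By this gene mouse Nas2Del_WT_1016 was the only male. What is particular to that mouse cannot be told apart from its sex, and sex was not tested. Values without mouse Nas2Del_WT_1026 are therefore given beside the genes and medians that moved most without it. The wild-type mice left then have lower animal numbers than every *Slc13a4*+/- mouse, so genotype and animal number cannot be told apart in those values. Leaving out mouse Nas2Del_WT_1016 or Nas2Del_WT_1018 instead moved the median log2 fold change of the 36 genes towards 0, from -0.26 to -0.18 or -0.21. Each gene given below without mouse Nas2Del_WT_1026 had a smaller fall without mouse Nas2Del_WT_1016 than with all mice. Without mouse Nas2Del_WT_1016 *Isg15* had -0.33, *Bst2* -0.30, *Oasl2* -0.28, *Ifitm3* -0.21, *Lgals3bp* -0.21 and *Ifi44* -0.17. *Oas1a* went the other way, to -0.67.

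ISGF3 binds its targets at a short promoter motif, and a few promoters are printed to show it. The window searched ran from 250 bases upstream to 50 bases downstream of the annotated start (RefSeq, GRCm38.p6), and 29 of the 36 genes had such a window. The motif searched was the core of the interferon-stimulated response element, GAAA followed by any 2 bases and GAAA again, on either strand. It reads TTTC, any 2 bases, TTTC when it lies on the other strand. It was present in 14 of the 29 genes (48.3%), against 3.99% of 27025 genes with a window. The other motif searched was TTC, any 3 bases, GAA, the core of the gamma-activated site of interferon gamma targets, which reads the same on both strands. It was present in 7 of the 29 genes (24.1%), against 9.55% of all genes with a window. The stretches below lie upstream of the start, are written 5′ to 3′ on the strand of the gene, and carry the response element in capitals.
Isg15 (chr4:156200850-156200921, minus strand): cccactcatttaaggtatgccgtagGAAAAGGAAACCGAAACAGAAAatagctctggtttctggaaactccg
Ifit1 (chr19:34640760-34640838, plus strand): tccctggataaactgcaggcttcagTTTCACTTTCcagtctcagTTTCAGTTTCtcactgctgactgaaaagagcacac
Ifit3 (chr19:34583348-34583441, plus strand): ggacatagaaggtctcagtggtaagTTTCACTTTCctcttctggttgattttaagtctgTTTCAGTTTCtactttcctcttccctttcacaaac
Oas1a (chr5:120907526-120907570, minus strand): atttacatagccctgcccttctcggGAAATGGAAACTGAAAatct
Bst2 (chr8:71537562-71537627, minus strand): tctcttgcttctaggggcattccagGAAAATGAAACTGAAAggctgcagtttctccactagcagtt
Ifitm2 (chr7:140955973-140956032, minus strand): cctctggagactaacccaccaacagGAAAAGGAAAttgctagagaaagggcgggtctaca
B2m (chr2:122147523-122147582, plus strand): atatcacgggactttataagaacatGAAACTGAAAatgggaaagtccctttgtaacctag
*Isg15* carried 3 overlapping copies of the motif, and *Ifit1* and *Ifit3* each carried 2 that lie apart. *Ifitm2* and *B2m* carried 1 each. A match is a run of letters and not a shown binding site.

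The 36 genes covered a wide range of levels in this tissue. On the per-length TPM scale, averaged over the 6 mice, *B2m*, the invariant chain of class I molecules, stood first at 165 TPM (158 to 173 TPM). The class I heavy chain *H2-D1* (36.9 TPM), *Ifi27* (34.96 TPM), which encodes a mitochondrial membrane protein, and the class I heavy chain *H2-K1* (33.0 TPM) followed, and the ranges of these 3 genes over the mice overlapped. *Ifitm2*, *Ifitm3* and *Stat2* were the other genes above 10 TPM, at 19.4, 19.1 and 10.9 TPM. Another 24 genes lay between 1 and 10 TPM, and 5 lay below 1 TPM, with *Oas2*, an oligoadenylate synthetase, lowest at 0.16 TPM. *Oas2* had as few as 17 counts in a mouse, so small differences in it were not detectable at this depth.

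In the genotype contrast, 30 of the 36 genes had a log2 fold change (*Slc13a4*+/- over wild type) below 0, where 52.2% of all tested genes did. Their median log2 fold change was -0.26, beside -0.0045 for all tested genes, and they ranged from -0.77 in *Irf7* to 0.23 in *Mx1*. At an adjusted p under 0.1, edgeR's quasi-likelihood test called 0 of the 36 (0.00585% of all tested genes were called). At an unadjusted p under 0.05 it had 15 of the 36 lower (4.17% of all tested genes) and 0 higher (4.98%). DESeq2 with transcript length offsets also called 0 (0.487% of all genes), and without the offsets it called *Ifi27* and *Rnf213* (0.311%). edgeR without a filter on low counts called *Irf7*, *Ifit1*, *Ifi27* and *Rnf213* (0.513%). DESeq2 without retained-intron transcripts or offsets called *Irf7* and *Ifi27* (0.376%), and DESeq2 without mouse Nas2Del_Het_1025 called *Rnf213* (0.246%). Since the list was drawn up with this contrast known, nothing is read from these counts. In 8 genes every *Slc13a4*+/- mouse lay below every wild-type mouse (7.70% of all tested genes), and these were *Irf7*, *Ddx58*, *Ifit1*, *Oas1a*, *Gbp2*, *Ifi27*, *Rnf213* and *Parp14*. In 0 genes did every *Slc13a4*+/- mouse lie above (7.26%). The counts were the same with RLE scaling (7.59% of all tested genes lower and 7.34% higher). Without retained-intron transcripts 9 were lower (6.92%) and 2, *Ifitm2* and *Psmb8*, higher (7.03%). On the TPM scale 7 were lower (4.07%) and 1, *Ifitm2*, higher (10.6%). *Irf7*, *Ddx58*, *Ifi27* and *Parp14* overlapped on that scale, while *Ifih1*, *Oasl2* and *Ifi44* did not, so the overlaps stated below hold for CPM.

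**Figure D1:**
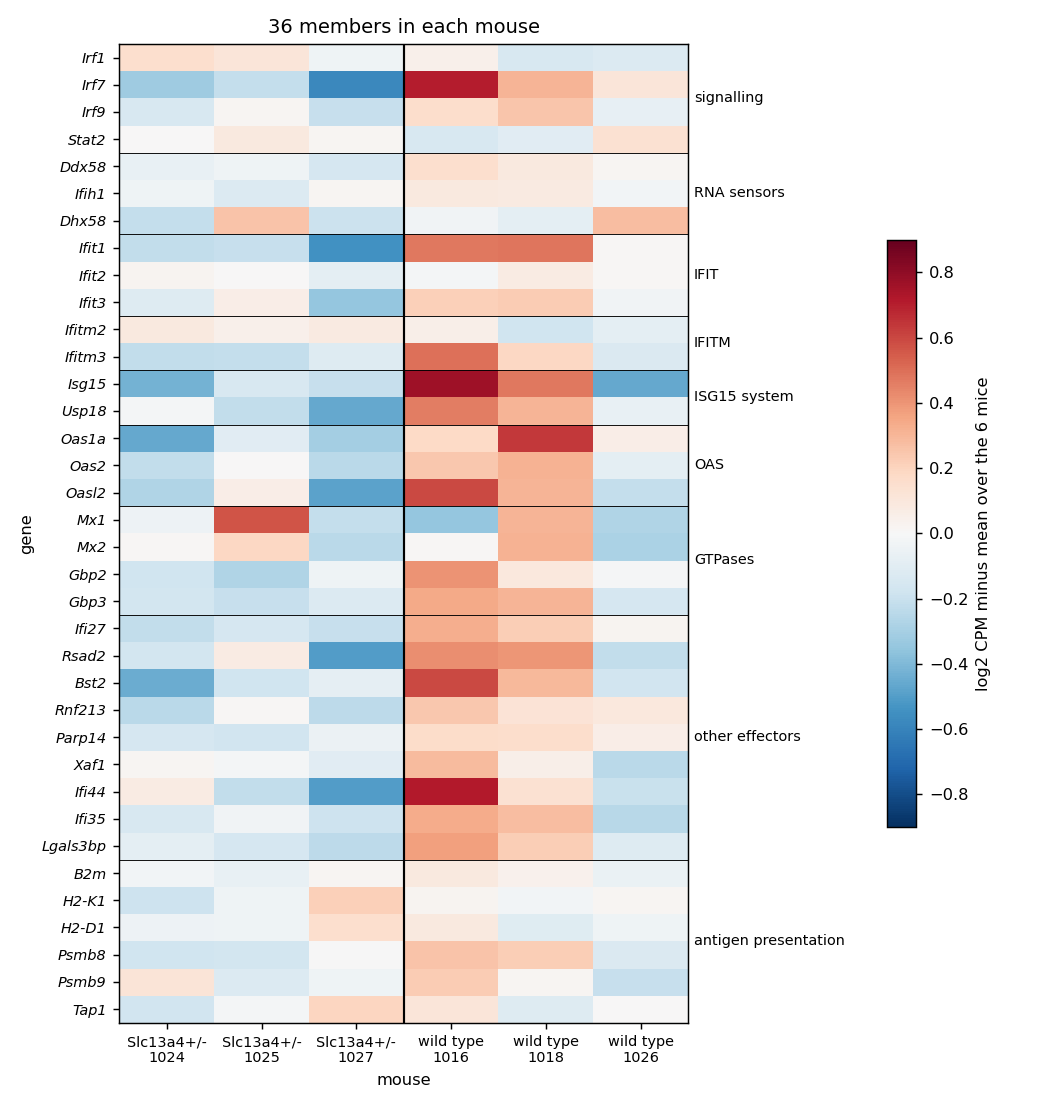
Heat map of the 36 genes (rows, grouped by role) in each of the 6 mice (columns), with colour showing log2 CPM minus the gene's mean over the 6 mice. Wild-type mice Nas2Del_WT_1016 and Nas2Del_WT_1018 are red in most rows outside antigen presentation, while mouse Nas2Del_WT_1026 is pale or blue in many rows, like the *Slc13a4*+/- mice.

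*Ifi27*, the gene the list was built around, had 10.04, 10.5 and 10.1 CPM in the *Slc13a4*+/- mice and 14.7, 13.6 and 11.9 CPM in the wild-type mice. The *Slc13a4*+/- mice lay within 1 CPM of each other and below each wild-type mouse, and mouse Nas2Del_WT_1026 was the lowest of the wild-type mice. On the TPM scale this separation was lost, as mouse Nas2Del_Het_1025 had 35.7 TPM and mouse Nas2Del_WT_1026 had 34.7 TPM. On the log2 scale *Ifi27* differed by -0.39 (SE 0.08), or by -0.47 without mouse Nas2Del_WT_1026. The gene lies on the plus strand of chromosome 12 (GRCm38, 103434211 to 103440239). The coding transcripts Ifi27-205 and Ifi27-201 took most of the counts. Ifi27-205 held 385 to 465 estimated counts per *Slc13a4*+/- mouse and 573 to 595 per wild-type mouse. The annotated retained-intron transcript Ifi27-209 had 141 estimated counts in mouse Nas2Del_Het_1025 and 0 in mouse Nas2Del_WT_1018, and reads are divided between such transcripts by a model. Without retained-intron transcripts the log2 fold change of *Ifi27* was -0.50, and with transcript length offsets in edgeR it was -0.29.

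Among the other effectors, all 9 genes were below 0, with a median of -0.33. *Rnf213*, a very large ubiquitin ligase with antimicrobial activity, had 21.4, 25.5 and 21.6 CPM in the *Slc13a4*+/- mice and 30.05, 27.5 and 27.04 CPM in the wild-type mice. Mouse Nas2Del_WT_1026 lay close to mouse Nas2Del_WT_1018, the genotypes did not overlap, and its log2 fold change was -0.30 (SE 0.07). *Parp14*, an ADP-ribosyltransferase, had 4.75, 4.69 and 5.08 CPM in the *Slc13a4*+/- mice and 5.92, 5.89 and 5.50 CPM in the wild-type mice. The genotypes of *Parp14* did not overlap, and its log2 fold change was -0.25 (SE 0.07). *Lgals3bp*, a secreted galectin-binding glycoprotein, had 9.06, 8.69 and 8.18 CPM in the *Slc13a4*+/- mice and 12.5, 11.2 and 8.87 CPM in the wild-type mice. Here mouse Nas2Del_WT_1026 fell within the *Slc13a4*+/- range, and the log2 fold change was -0.33 (SE 0.12), or -0.45 without that mouse. *Bst2* (tetherin, which holds budding virions at the cell surface) had a log2 fold change of -0.50 (SE 0.19), *Ifi44* one of -0.47 (SE 0.26) and *Rsad2* (viperin) one of -0.41 (SE 0.20). Without mouse Nas2Del_WT_1026 *Bst2* had -0.69, *Ifi44* -0.67 and *Rsad2* -0.59. With transcript length offsets in edgeR *Ifi44* had -0.997. *Ifi35* and *Xaf1* had -0.27 (SE 0.17) and -0.08 (SE 0.14). In all 5 of these genes mouse Nas2Del_WT_1026 lay within or below the range of the *Slc13a4*+/- mice.

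The 4 signalling genes did not share a direction. *Irf7*, the transcription factor that amplifies type I interferon production, had 1.22, 1.32 and 1.02 CPM in the *Slc13a4*+/- mice and 2.52, 1.90 and 1.65 CPM in the wild-type mice. The genotypes did not overlap, and the log2 fold change of -0.77 (SE 0.19) was the lowest of the 36 with all mice and no length offsets. With the offsets it was -0.65, and *Ifi44*, *Oasl2* and *Ifit1* were lower. Without retained-intron transcripts *Irf7* had -1.15. The retained-intron transcript Irf7-210 had 32.1, 29.1 and 0 estimated counts in the *Slc13a4*+/- mice and 0, 24.8 and 0 in the wild-type mice. Reads are divided between such transcripts by a model, so the size of the difference in *Irf7* is uncertain. *Irf9*, the DNA-binding subunit of ISGF3, had 8.12, 9.11 and 7.77 CPM in the *Slc13a4*+/- mice and 10.005, 10.7 and 8.54 CPM in the wild-type mice, with a log2 fold change of -0.22 (SE 0.10). Only mouse Nas2Del_WT_1026 overlapped with the *Slc13a4*+/- mice. *Stat2*, the partner of IRF9 in that complex, went the other way within the wild-type group, with 14.05, 14.5 and 17.04 CPM in the wild-type mice and 15.5, 16.5 and 15.7 CPM in the *Slc13a4*+/- mice. Its log2 fold change was 0.06 (SE 0.08), and mouse Nas2Del_WT_1026 was the highest of the 6. *Irf1*, a factor induced mainly by interferon gamma, had a log2 fold change of 0.15 (SE 0.09).

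**Figure D2:**
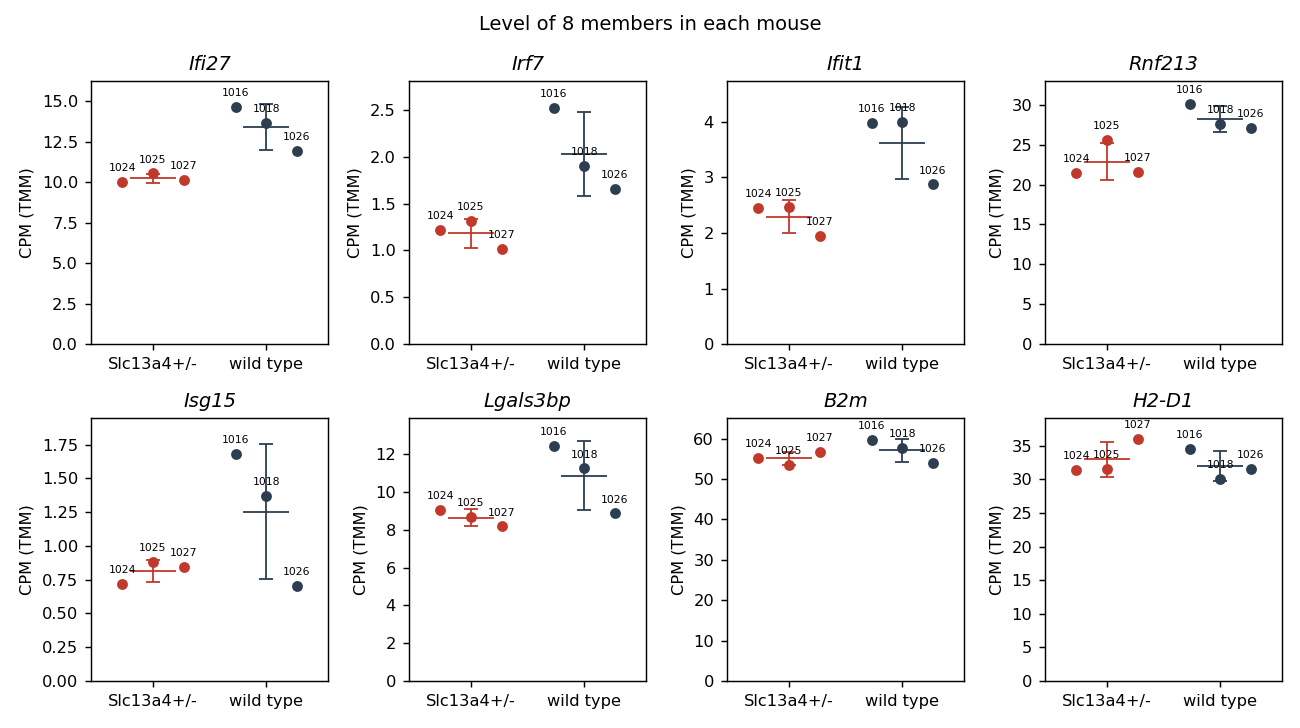
CPM after TMM normalization (vertical axes, from 0) of 8 of the genes in each mouse (points, with the last part of its name), with the mean (long bar) and SD (error bar) of the 3 mice of a genotype. The genotypes do not overlap in *Ifi27*, *Irf7*, *Ifit1* and *Rnf213*, mouse Nas2Del_WT_1026 sits at the level of the *Slc13a4*+/- mice in *Isg15* and *Lgals3bp*, and *B2m* and *H2-D1* overlap.

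The sensors of viral RNA differed little. *Ddx58*, which encodes RIG-I, had 5.87, 5.99 and 5.52 CPM in the *Slc13a4*+/- mice and 6.81, 6.54 and 6.21 CPM in the wild-type mice. The genotypes did not overlap, but the log2 fold change was only -0.17 (SE 0.07). *Ifih1*, which encodes MDA5, had 6.49, 6.09 and 6.72 CPM in the *Slc13a4*+/- mice and 7.06, 7.03 and 6.55 CPM in the wild-type mice, with a log2 fold change of -0.10 (SE 0.07). *Dhx58*, which encodes LGP2, a regulator of the other sensors, had a log2 fold change of -0.11 (SE 0.21).

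IFIT proteins bind foreign RNA and block its translation, and the 3 *Ifit* genes, neighbours on chromosome 19, differed from each other. *Ifit1* had 2.45, 2.47 and 1.95 CPM in the *Slc13a4*+/- mice and 3.98, 4.004 and 2.87 CPM in the wild-type mice, without overlap. Its log2 fold change was -0.66 (SE 0.16), and it was -0.80 without mouse Nas2Del_WT_1026. *Ifit3* had 6.36, 7.19 and 5.43 CPM in the *Slc13a4*+/- mice and 8.04, 8.09 and 6.74 CPM in the wild-type mice. Only mouse Nas2Del_WT_1026 overlapped with the *Slc13a4*+/- mice, and the log2 fold change was -0.27 (SE 0.12). *Ifit2* had 15.6, 15.3 and 14.4 CPM in the *Slc13a4*+/- mice and 15.2, 16.1 and 15.4 CPM in the wild-type mice, with a log2 fold change of -0.04 (SE 0.05). *Ifit3* has a close copy in *Ifit3b*, so the division of reads between them is uncertain.

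IFITM proteins block virus entry at the membrane, and *Ifitm2* and *Ifitm3*, which are close copies of each other, also parted. *Ifitm3* had 4.07, 4.08 and 4.37 CPM in the *Slc13a4*+/- mice and 6.72, 5.39 and 4.33 CPM in the wild-type mice. Mice Nas2Del_WT_1016 and Nas2Del_WT_1018 were high and mouse Nas2Del_WT_1026 was not, and the log2 fold change was -0.39 (SE 0.15), or -0.54 without the latter. *Ifitm2* had 4.995, 4.83 and 4.96 CPM in the *Slc13a4*+/- mice and 4.87, 4.14 and 4.41 CPM in the wild-type mice, with a log2 fold change of 0.14 (SE 0.08). Reads that fit both copies are divided by a model, so the contrast between them is uncertain.

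The ISG15 system had the lowest median of the roles, at -0.54. *Isg15*, a ubiquitin-like protein that is attached to other proteins, had 0.721, 0.882 and 0.842 CPM in the *Slc13a4*+/- mice and 1.68, 1.37 and 0.705 CPM in the wild-type mice. Mouse Nas2Del_WT_1026 was the lowest of all 6 mice, and the log2 fold change of -0.61 (SE 0.29) became -0.91 without it. *Usp18*, which removes ISG15 and dampens the interferon receptor, had 1.35, 1.17 and 0.989 CPM in the *Slc13a4*+/- mice and 1.89, 1.70 and 1.31 CPM in the wild-type mice. Mouse Nas2Del_WT_1026 again overlapped with the *Slc13a4*+/- mice, and the log2 fold change was -0.48 (SE 0.18), or -0.62 without it.

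The OAS family senses double-stranded RNA and activates RNase L, and its 3 genes had a median of -0.48. *Oas1a* had 0.502, 0.651 and 0.562 CPM in the *Slc13a4*+/- mice and 0.796, 1.11 and 0.731 CPM in the wild-type mice. The genotypes did not overlap, and the log2 fold change was -0.61 (SE 0.22). *Oasl2* had 1.98, 2.503 and 1.71 CPM in the *Slc13a4*+/- mice and 3.64, 2.98 and 2.06 CPM in the wild-type mice, with mouse Nas2Del_WT_1026 inside the *Slc13a4*+/- range. Its log2 fold change was -0.48 (SE 0.22), -0.68 without that mouse and -0.75 with transcript length offsets in edgeR. *Oas2* had -0.34 (SE 0.25).

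Of the 4 interferon-induced GTPases, 3 were below 0. *Gbp2* had 2.32, 2.17 and 2.55 CPM in the *Slc13a4*+/- mice and 3.49, 2.81 and 2.60 CPM in the wild-type mice, with a log2 fold change of -0.34 (SE 0.13). *Gbp3* had 4.17, 4.05 and 4.29 CPM in the *Slc13a4*+/- mice and 5.92, 5.77 and 4.22 CPM in the wild-type mice, also with -0.34 (SE 0.13). *Gbp2* did not overlap between the genotypes, and in *Gbp3* mouse Nas2Del_WT_1026 lay among the *Slc13a4*+/- mice, with a log2 fold change of -0.49 without it. *Mx1* and *Mx2* belong to a family that acts against the replication of RNA viruses. Their log2 fold changes were 0.23 (SE 0.27) and -0.03 (SE 0.19), so neither differed by more than its SE. *Mx2* is annotated as a polymorphic pseudogene, and a transcript of that type took 89.6% to 98.9% of its counts in each mouse. In *Mx1* a transcript annotated as a target of nonsense-mediated decay took 55.6% to 79.2%. Whether these mice make a working protein from either gene was not tested.

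The 6 antigen presentation genes had a median of -0.02, and 4 of the 6 were below 0. Of these, 5 lay within 0.1 of 0, and *Psmb8* did not. *B2m* had 55.2, 53.5 and 56.7 CPM in the *Slc13a4*+/- mice and 59.7, 57.6 and 53.9 CPM in the wild-type mice, with a log2 fold change of -0.05 (SE 0.05). *H2-D1* had 31.4, 31.5 and 35.96 CPM in the *Slc13a4*+/- mice and 34.5, 30.1 and 31.6 CPM in the wild-type mice, with a log2 fold change of 0.04 (SE 0.07). In both genes the genotypes overlapped. *H2-K1* had -0.00 (SE 0.09), *Tap1*, a subunit of the peptide transporter, had 0.00 (SE 0.13), and *Psmb9*, an immunoproteasome subunit, had -0.03 (SE 0.20). *H2-K1* and *H2-D1* share long stretches of sequence with each other and with further class I genes, so their counts depend on each other.

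*Psmb8*, the other immunoproteasome subunit, turned direction with the transcripts that were counted. Its log2 fold change was -0.24 (SE 0.14) with all transcripts, -0.56 with transcript length offsets in edgeR and 0.73 without annotated retained-intron transcripts. The coding transcript Psmb8-201 had 129, 61.6 and 74.7 estimated counts in the *Slc13a4*+/- mice and 14.3, 3.63 and 20.9 in the wild-type mice. The retained-intron transcript Psmb8-205 had 0 in each *Slc13a4*+/- mouse and 51.7, 86.3 and 66.8 in the wild-type mice. Reads of the gene were thus assigned to different transcripts in the genotypes, and no direction is given for the gene. Annotated retained-intron transcripts took 2.02% to 2.44% of all counts in *Slc13a4*+/- mice against 1.80% to 2.003% in wild-type mice, and their part in this result was not tested. *Psmb8* is described here because its values turned, and was chosen after they were seen.

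The 30 genes outside antigen presentation had a median log2 fold change of -0.32, with 26 below 0, and their median without mouse Nas2Del_WT_1026 was -0.43. For all 36 genes the median was -0.34 without mouse Nas2Del_WT_1026, -0.18 without mouse Nas2Del_WT_1016 and -0.21 without mouse Nas2Del_WT_1018. Leaving out mouse Nas2Del_WT_1026 made the log2 fold change lower in 32 of the 36 genes, and edgeR then called 8 of them lower: *Ifitm3*, *Irf7*, *Gbp3*, *Lgals3bp*, *Ifit1*, *Isg15*, *Bst2* and *Ifi27* (1.29% of all tested genes were called in that fit). DESeq2 without mouse Nas2Del_WT_1026 called 4 (*Irf9*, *Lgals3bp*, *Ifi27* and *Rnf213*), where 6.54% of the genes with an adjusted p were called, and only 9 of the 36 had one. Mice Nas2Del_WT_1016 and Nas2Del_WT_1018 also have the lowest animal numbers, and the other 4 mice form a run of higher numbers. The labels give no date or batch, and what the numbers stand for is not stated. With the run of animal numbers as a covariate, mouse Nas2Del_WT_1026 is the only wild-type mouse that the *Slc13a4*+/- mice are compared with. The median of the 36 genes was then -0.03, 22 were below 0 (51.5% of all tested genes), and edgeR called 0 of them (0.836% of all tested genes). In that fit *Irf7* had a log2 fold change of -0.48 (SE 0.22), *Ifit1* -0.33 (SE 0.16), *Rnf213* -0.24 (SE 0.10), *Ifi27* -0.22 (SE 0.08) and *Parp14* -0.18 (SE 0.10). The others of the 8 that did not overlap had -0.36 (SE 0.29, *Oas1a*), -0.15 (SE 0.17, *Gbp2*) and -0.10 (SE 0.10, *Ddx58*), and *Isg15* turned to 0.21 (SE 0.25). With 1 wild-type mouse in the run of higher numbers and no *Slc13a4*+/- mouse in the lower, genotype and the run of animal numbers cannot be told apart.

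**Figure D3:**
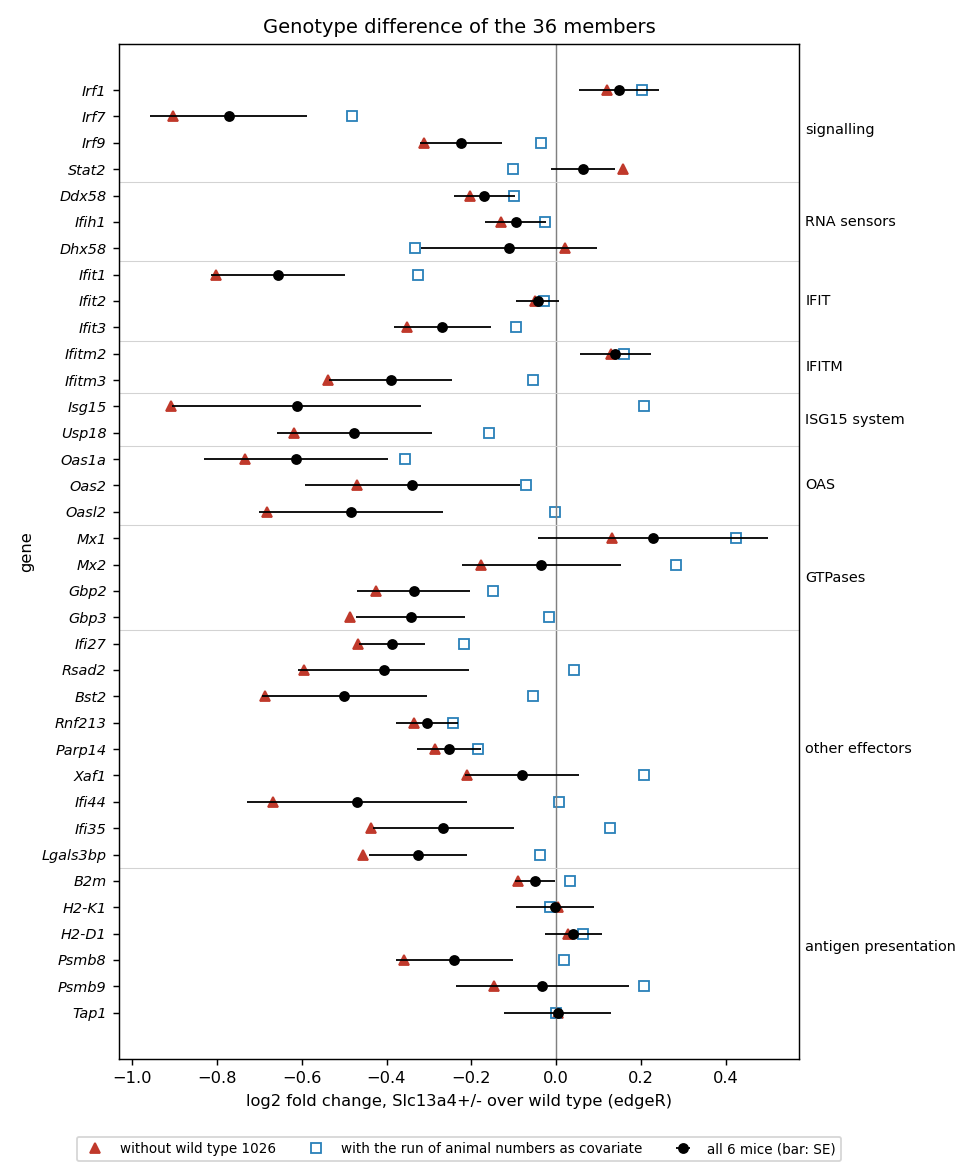
Log2 fold change (*Slc13a4*+/- over wild type, horizontal axis) of each of the 36 genes in edgeR, grouped by role, with all 6 mice (black, bar for the SE), without mouse Nas2Del_WT_1026 (red triangles) and with the run of animal numbers as a covariate (blue squares). Without mouse Nas2Del_WT_1026 the points outside antigen presentation move mostly to the left, to a median of -0.43, and with the covariate they move towards 0, to a median of -0.05.

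The mice differed in these genes as individuals. Mouse Nas2Del_WT_1016 had the highest level of the 6 mice in 21 of the 36 genes, where it was highest in 20.3% of all tested genes. Mouse Nas2Del_WT_1018 was highest in 7, mouse Nas2Del_WT_1026 in 2, and the 3 *Slc13a4*+/- mice in 6 between them. The median deviation of the 36 genes from their mean over the mice, on the log2 CPM scale, was 0.24 in mouse Nas2Del_WT_1016 and 0.20 in mouse Nas2Del_WT_1018. It was -0.07 in mouse Nas2Del_WT_1026, and -0.15, -0.04 and -0.17 in the *Slc13a4*+/- mice. So mouse Nas2Del_WT_1026 lay between mouse Nas2Del_Het_1025 and mouse Nas2Del_Het_1024 by this measure. Mouse Nas2Del_WT_1016 was above all 3 *Slc13a4*+/- mice in 26 of the 36 genes and mouse Nas2Del_WT_1018 in 27, against 31.7% and 30.5% of all tested genes. Mouse Nas2Del_WT_1026 was above all 3 in 10, within their range in 18 and below all 3 in 8, and over all tested genes it was above in 31.9%. The median spread between replicates was larger in these genes than over all tested genes. The median SD of log2 CPM was 0.12 among the *Slc13a4*+/- mice and 0.22 among the wild-type mice, beside 0.061 and 0.084 over all tested genes. Many of the 36 genes have few counts, where sampling adds to the SD, and genes of equal level were not compared. In *B2m*, the gene with the highest TPM, the SDs were 0.042 and 0.075.

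Co-variation with *Ifi27* was measured as Pearson's r of log2 CPM over the 6 mice, which share the library of each mouse and its scaling. Of the 35 other genes, 24 had an r above 0.5 (23.4% of all tested genes), and the median r was 0.83. After the mean of each genotype was removed, 25 of the 35 had an r above 0.5 (25.9% of all tested genes), with a median of 0.74. The SD of log2 CPM of *Ifi27* was 0.15 among the wild-type mice and 0.04 among the *Slc13a4*+/- mice. This r therefore rests mainly on the wild-type mice. In 25 of the 36 genes mice Nas2Del_WT_1016 and Nas2Del_WT_1018 were both above all other mice (14.6% of all tested genes). The mice farthest from the median of *Ifi27* were mice Nas2Del_WT_1016 and Nas2Del_WT_1018. Without them, 9 of the 35 genes had an r above 0.5 (30.6% of all tested genes) and the median was 0.26. These mice were picked by their distance in *Ifi27*, so removing both narrows its range, and it leaves 4 points. Whether the co-variation depends on that pair of mice therefore cannot be told from this fall. Without mouse Nas2Del_WT_1016 alone 23 of the 35 were above 0.5, and without mouse Nas2Del_WT_1018 alone 24 were. By r the most similar genes were *Irf7* (r = 0.965, exact permutation p = 0.0028, and Spearman's rho 0.943, p = 0.017), *Ddx58* (r = 0.948, exact permutation p = 0.0028, and rho 0.943, p = 0.017) and *Ifit1* (r = 0.950, exact permutation p = 0.0083, and rho 0.886, p = 0.033). In these 3 genes r stayed above 0.7 without mice Nas2Del_WT_1016 and Nas2Del_WT_1018, at 0.893, 0.782 and 0.767. In *Oas1a*, *Rnf213* and *Parp14* it also stayed above 0.7 without them. *Stat2* turned from -0.66 to 0.93 and *Dhx58* went from 0.10 to 0.80, while *Xaf1* went from 0.58 to -0.87 and *Ifitm2* from -0.54 to -0.9998. The 4 mice left are the *Slc13a4*+/- mice, which lay close together in *Ifi27*, and mouse Nas2Del_WT_1026, so these values rest largely on that mouse. *Rnf213* had the same order of mice as *Ifi27* (rho 1, exact permutation p = 0.0028). With genotype means removed *Irf7*, *Ddx58* and *Ifit1* had r = 0.842, 0.797 and 0.793. The r and p over 6 mice include the genotype difference known when the list was drawn up. None of the correlations passed a Benjamini-Hochberg adjustment over all 17095 genes correlated with *Ifi27*, where the smallest adjusted p of these genes was 0.373 by exact permutation, two-sided. At an unadjusted exact p under 0.05 there were 19 of the 35 genes (10.7% of all tested genes). The lowest were *Stat2* (r = -0.66, exact permutation p = 0.167, and rho -0.43, p = 0.419), *Ifitm2* (r = -0.54, exact permutation p = 0.274, and rho -0.66, p = 0.175) and *Irf1* (r = -0.43, exact permutation p = 0.357, and rho -0.54, p = 0.297). Over the 630 pairs of the 36 genes the median r was 0.55, or 0.47 with genotype means removed.

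**Figure D4:**
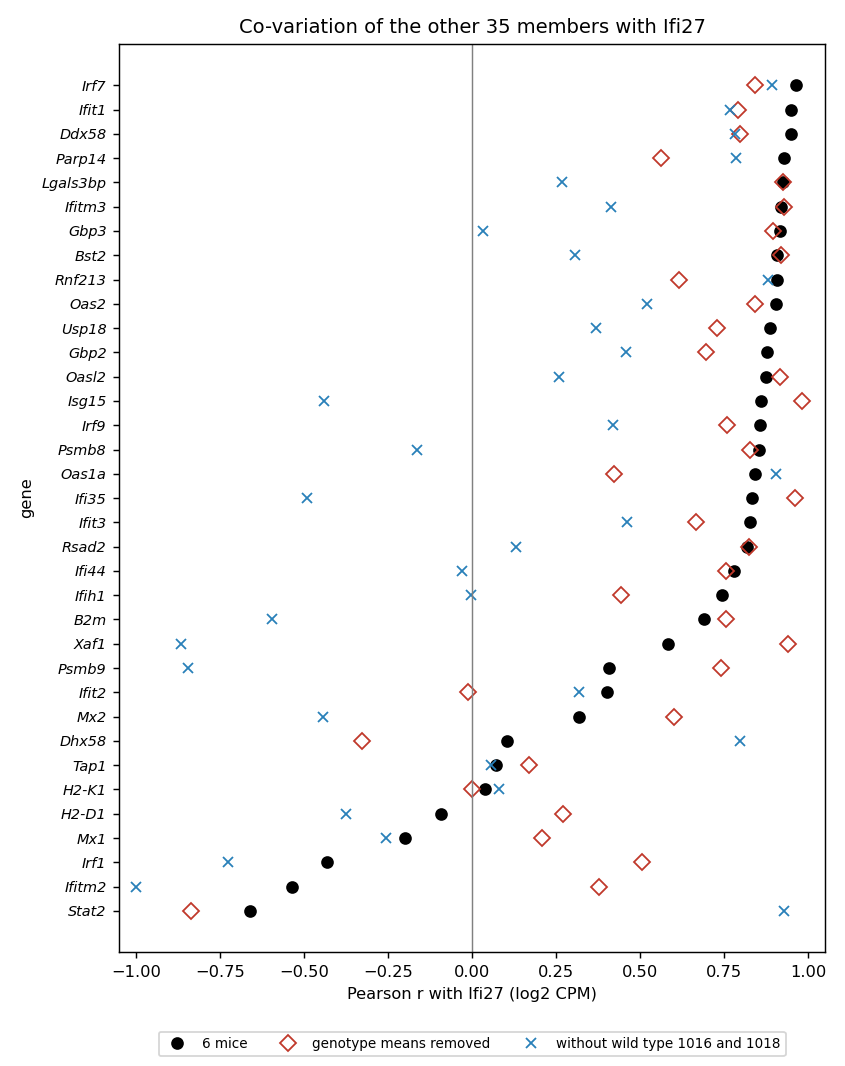
Pearson's r with *Ifi27* (horizontal axis, log2 CPM) for each of the 35 other genes over the 6 mice (black), with genotype means removed (red diamonds) and without mice Nas2Del_WT_1016 and Nas2Del_WT_1018 (blue crosses, 4 mice). Most black and red points lie above 0.5, and the crosses spread on both sides of 0, with 9 above 0.5.

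The response element was found in genes with and without a genotype difference. The 14 genes with the response element in their window had a median log2 fold change of -0.34, and the 15 with a window and no match had -0.22. Of the antigen presentation genes, *H2-D1*, *H2-K1*, *Psmb8*, *Psmb9* and *Tap1* had no match and only *B2m* had one. The gap between the medians cannot be told apart from this make-up of the groups. In *Ddx58*, *Ifih1* and *Ifitm3* the motif lay only downstream of the start. Both groups spanned values near 0 and below -0.6, as *Ifit1* and *Ifitm2* had the motif and *Irf7* and *Ifit2* did not.

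Other genes of the pathway were counted from lists drawn up by function. None of 11 interferon ligand genes had enough counts to be tested, and their levels summed to at most 0.147 TPM in a mouse. Of 14 receptors, kinases and transcription factors downstream of them, 10 were below 0, with a median of -0.04, and edgeR called 0. The medians of the pathway lists without mouse Nas2Del_WT_1026 lay between -0.09 and 0.04. The smallest p was that of *Irf8* (log2 fold change -0.24, SE 0.08), a factor of microglia and other myeloid cells. The receptor subunits *Ifnar1* and *Ifnar2* had 0.04 (SE 0.04) and 0.05 (SE 0.06). Of 9 further genes of nucleic acid sensing, 7 were below 0 (median -0.09), and of 11 brakes on the response, 4 were (median 0.03). The smallest p in these lists belonged to *Tlr3*, an endosomal sensor of double-stranded RNA (-0.15, SE 0.06), and to *Rnaseh2c*, a subunit of the nuclease that removes RNA from DNA (-0.20, SE 0.06). *Ifnar1* and *Ifnar2* were chosen after their values were seen.

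Among 34 further interferon-induced genes tested, 25 were below 0 and the median was -0.04. In edgeR 4 were lower (4.17% of all tested genes) and 1 was higher (4.98%) at an unadjusted p under 0.05, and 0 were called at an adjusted p under 0.1. The 4 lower were *Oas1c* (log2 fold change -0.47, SE 0.16), *Ifit3b* (-0.33, SE 0.11), *Trim30a* (-0.40, SE 0.13) and *Rtp4* (-0.36, SE 0.13). The higher one was *Gbp4* (0.44, SE 0.19). Of 18 further antigen presentation genes, 13 were below 0 with a median of -0.06. The 2 at an unadjusted p under 0.05 were *Pdia3* (-0.12, SE 0.04) and *Calr* (-0.13, SE 0.04), chaperones of the endoplasmic reticulum that also serve many other proteins. DESeq2 with length offsets also called 0 in each of these lists.

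Markers of some other cells were lower in the *Slc13a4*+/- mice as a list, with 0 called by edgeR. All 12 microglia markers were below 0 (median log2 fold change -0.14), with a summed level of 566 to 575 TPM in *Slc13a4*+/- mice against 597 to 627 TPM in wild-type mice. All 9 choroid plexus markers were below 0, with a median of -0.19 and a summed level of 1117 to 1249 TPM against 1302 to 1315 TPM, and DESeq2 with length offsets called *Ttr* (transthyretin). Of 10 endothelial markers 7 were below 0, with a median of -0.09 and a summed level of 359 to 387 TPM against 386 to 397 TPM. All 5 erythroid markers were below 0, with a summed level of 2793 to 3316 TPM against 2563 to 4090 TPM and a median of -0.15, which was -0.32 without mouse Nas2Del_WT_1026 and 0.25 with the run of animal numbers as a covariate. As in many of the 36 genes, their median thus moved away from 0 without that mouse. Without it the microglia median was -0.13, the choroid plexus median -0.22 and the endothelial median -0.08. Of 7 leukocyte markers tested, 1 was below 0 and the median was 0.20. They summed to 14.3 to 17.5 TPM against 14.4 to 14.9 TPM, and 6 of all 12 were below 1 TPM in every mouse. Of 8 markers of meningeal fibroblasts 4 were below 0 (median 0.02), of 6 neuron markers 2 (median 0.01) and of 6 astrocyte markers 5 (median -0.05). With the run of animal numbers as a covariate the microglia median was -0.10 and the choroid plexus median -0.10. The part of these cell types in the lower level of the interferon-induced genes was not tested.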

How the data were processed

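RNA-Seq libraries (stranded, depleted of rRNA) of the forebrain of 3 *Slc13a4*+/- and 3 wild-type mice were quantified by the authors with Salmon 1.2.0. They deposited expected counts per transcript, which need not be whole, with TPM values that the authors scaled by transcript length. Which transcripts and genome build the index held was not given in the sources used here.

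Of 117135 transcripts, 115973 were matched by identifier to GENCODE M21 (GRCm38). The other 1162 (0.62% to 0.65% of counts) were left out. Expected counts were added up for each gene and then rounded. TPM was summed per gene for levels between genes.

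The test was edgeR 4.0.16 (quasi-likelihood, TMM, default filter, R 4.3.3) at a Benjamini-Hochberg adjusted p under 0.1 over 17096 genes. DESeq2 1.42.0 (Wald test), other scalings and filters, leaving out each mouse and the run of animal numbers as a covariate were alternatives. Log2 CPM used a prior count of 2. Scripts were tested on simulated data. Correlations used all 720 pairings of the 6 mice, and were adjusted over all genes rather than over the list. Counts differed between all pairs of mice by more than sampling noise (chi-square per gene at least 6.55). The study names littermates as controls, but which mice shared a litter was not found, so p-values measure the spread between these samples.

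The 36 genes and all lists were chosen with earlier results of these data known. Values in every mouse are given for *Ifi27*, for the 2 genes of each role with the highest TPM, and for genes whose genotypes did not overlap. For co-variation the 3 highest and 3 lowest were named, and in other lists the gene with the smallest p, with further genes chosen after their values were seen. 7 genes without a promoter window here (*Mx1*, *Ifi27*, *Parp14*, *Oas2*, *Mx2*, *Dhx58* and *Usp18*) were not searched. Python 3.11.15 joined the files and drew the plots. The values of 1 gene of the pathway lists are not reported here.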

Additional observations from a re-analysis of the deposited data

How the results depend on the processing

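edgeR called 0 of the 36 genes (0.00585% of all tested genes) and DESeq2 with length offsets called 0 (0.487%). DESeq2 without length offsets called 2 (0.311%). edgeR without the filter on low counts called 4, *Irf7*, *Ifit1*, *Ifi27* and *Rnf213* (0.513%). DESeq2 without retained-intron transcripts or length offsets, chosen after seeing the data, called 2, *Irf7* and *Ifi27* (0.376%). Leaving out 1 mouse at a time gave 0 to 8 calls in edgeR (0.00578% to 1.29% of all tested genes). In DESeq2, an alternative chosen after seeing the data, it gave 0 to 4 (0.173% to 6.54%). The highest count in both came when mouse Nas2Del_WT_1026 was left out, and only 9 of the 36 then had an adjusted p in DESeq2. DESeq2 without mouse Nas2Del_Het_1025 called 1, *Rnf213* (0.246%). The median log2 fold change of the 36 genes stayed below 0 in all alternatives, between -0.34 and -0.18 when mice were left out and -0.027 with the run of animal numbers as a covariate. The cause was not tested. The number of genes with an r above 0.5 with *Ifi27* fell from 24 to 9 without mice Nas2Del_WT_1016 and Nas2Del_WT_1018, with 4 mice left. Of 440 fold changes of the 22 genes given in full under the alternatives, 393 moved by less than 0.128, the pooled SD of the mouse medians. Of these 440, 6 changed sign (in *H2-D1*, *B2m*, *Isg15* and *Stat2*). The remaining genes are not in these counts, and some of them turned too. *Psmb8* had 0.73 without retained-intron transcripts, and with the covariate *Mx2* had 0.28, *Xaf1* 0.21 and *Psmb9* 0.21. Over all 36 genes, 30 were below 0 in the main fit (52.2% of all tested genes) and 22 with the covariate (51.5%). The genes whose genotypes did not overlap numbered 8 lower and 0 higher with either scaling of counts. Over all tested genes the shares were 7.70% and 7.26% with TMM, and 7.59% and 7.34% with RLE. Without retained-intron transcripts there were 9 lower (6.92%) and 2 higher (7.03%), and on the TPM scale 7 lower (4.07%) and 1 higher (10.6%). Genes under 1 TPM have few counts, which limits what can be seen in them. No paired analysis was possible because the genotypes share no replicate numbers and no source used here gives their litters.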
